A study of Mus musculus with 8 samples.

Results

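The cytosolic ribosomal protein genes were followed across the 4 groups of the study. A gene belonged to the set when its symbol was *Rps* or *Rpl* with a number and, for some, a closing letter, or when it was *Rpsa*, *Rplp0*, *Rplp1* or *Rplp2*. This rule, which used the symbol and no measured value, found 84 of the 18990 genes in the deposited table. Of these, 76 were core genes, 30 for the small (40S) and 46 for the large (60S) ribosomal subunit. The other 8 were paralogues, that is related copies whose symbols end in l, al or l1. The ribosomal proteins *Rps3a1*, *Fau* and *Rack1* lie outside the rule and are given apart.

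The cells were primary mouse embryonic fibroblasts (MEFs) of wild-type genotype and BL6 strain, labelled as reprogrammed at passage 2 (the study's methods name earlier passages for seeding), and all groups shared the treatment described here. They were transduced with the tet-STEMCCA lentivirus, which carries the transgenes for OCT4, SOX2, KLF4 and c-MYC, and with an rtTA virus, and they then received 40 nM of a pool of siRNAs before reprogramming was induced with doxycycline in medium with LIF, ascorbic acid, chiron and an Alk5 inhibitor. Total RNA depleted of ribosomal RNA was sequenced at day 3 and day 6 from cells given *siNcor1* or *siOct4*, 2 biological replicates forming each of the 4 groups, and the p-values rest on the spread within groups, pooled over all 8 libraries. The comparisons are between the knockdowns and between the days, and comparisons that use the same group share its libraries. No library with a non-targeting siRNA is among these samples, so a difference between the knockdowns cannot be assigned to either of them.

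A ribosome is built from ribosomal RNA and one copy of nearly every ribosomal protein, so cells make these proteins in matched amounts. Their messages are short and very abundant, and most begin with a run of pyrimidines, the 5′ terminal oligopyrimidine (TOP) motif, through which mTORC1 and LARP1 set how strongly they are translated. MYC, which is part of the cassette, is known as an activator of ribosome production. RNA levels do not measure translation, and in bulk RNA fewer cells of a type and less RNA per cell cannot be told apart.

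Values are deposited log2 CPM (CPM, reads scaled to a common library total), and the depth was 7735742 to 16445192 reads on genes per library. *Ncor1* had 7.08 and 7.20 log2 CPM at day 3 in the *siNcor1* libraries and 7.82 and 7.94 in those labelled *siOct4* (log2 fold change 0.74, limma adjusted p = 0.0139), while at day 6 the difference was −0.042 (adjusted p = 0.815). *Pou5f1*, the gene of OCT4, differed by −0.076 at day 3 between *siOct4* and *siNcor1* (adjusted p = 0.941), so no reduction was seen there, and was 1.78 higher in *siOct4* at day 6, and its reads include any from the transgene. The libraries are therefore named by their labels. The 10 fibroblast markers summed to 10843 to 11200 CPM at day 3 in *siNcor1*, 14124 to 16487 in *siOct4*, 7300 to 7677 at day 6 in *siNcor1* and 4179 to 4221 in *siOct4*. The 5 epithelial markers summed to 53.3 to 55.0, 15.4 to 17.3, 639 to 673 and 270 to 298 CPM in the same order. The 5 pluripotency markers reached 52.9 to 55.7 CPM in *siNcor1* and 20.5 CPM in both *siOct4* libraries at day 6, with *Zfp42* at 3 reads or fewer in every library, and the endothelial and macrophage lists stayed at 7.31 to 44.4 CPM. The non-coding gene *Gm26917* took 15.5% to 16.6% of reads at day 3 and 20.3% to 29.1% at day 6. The part of these shifts in the results on ribosomal protein genes was not tested.

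The start-site regions of 62 members, 56 core genes and 6 paralogues, were in the RefSeq promoter table of GRCm38.p6. Of the 66 core promoter rows, since some genes have several starts, 40.9% held a run of at least 8 C or T bases between 10 bases before and 30 bases after the annotated start, against 14.4% of all 32851 promoter rows. The core of ETS factor sites, CCGGAAG, was found on either strand in 36.4% of core rows, from 250 bases before to 50 bases after the start, and in 8.86% of all rows. The E-box CACGTG is the element that MYC with its partner MAX can bind. It was in 12.1% of core rows, which is 8 of 66, and in 7.15% of all rows. Each motif was counted apart from the others, and a gene with several starts can be counted more than once. The lines below show 8 core genes, chosen after their values were seen as pairs with and without a long run among genes that rose and genes that did not pass the test in *siNcor1*. Each line runs 5′ to 3′ from 40 bases before the start to 30 bases after it, and the capitals mark the longest run of C and T from 10 bases before the start onwards.
Rpl35, minus strand of chr2:39005102-39005171: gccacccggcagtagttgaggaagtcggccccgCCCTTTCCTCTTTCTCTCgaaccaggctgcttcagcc
Rps27, minus strand of chr3:90213619-90213688: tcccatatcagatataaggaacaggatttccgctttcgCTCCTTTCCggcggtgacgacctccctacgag
Rpl37, plus strand of chr15:5116573-5116642: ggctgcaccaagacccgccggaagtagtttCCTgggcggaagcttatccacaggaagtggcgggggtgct
Rpl36a, plus strand of chrX:134585614-134585683: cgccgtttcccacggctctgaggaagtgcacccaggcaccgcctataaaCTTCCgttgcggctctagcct
Rpl7a, plus strand of chr2:26910767-26910836: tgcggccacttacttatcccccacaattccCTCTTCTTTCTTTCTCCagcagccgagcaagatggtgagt
Rpl28, plus strand of chr7:4792925-4792994: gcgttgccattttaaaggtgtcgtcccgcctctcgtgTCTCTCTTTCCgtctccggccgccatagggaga
Rps2, plus strand of chr17:24720023-24720092: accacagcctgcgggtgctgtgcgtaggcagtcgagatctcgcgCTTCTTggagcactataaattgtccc
Rpl9, minus strand of chr5:65391402-65391471: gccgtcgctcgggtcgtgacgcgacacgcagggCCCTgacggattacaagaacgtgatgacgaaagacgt
Counted from 10 bases before the start onwards, the run was 18 bases long in *Rpl35* and 9 in *Rps27*, but 3 in *Rpl37* and 5 in *Rpl36a*. All 4 genes rose from day 3 to day 6 in *siNcor1*, by 1.24, 1.32, 1.12 and 1.09 on the log2 scale. In *Rpl37* and *Rpl7a* the run was cut at that edge, and more C and T bases stand directly before it. The run so counted was 17 bases in *Rpl7a* and 11 in *Rpl28*, and 6 in *Rps2* and 4 in *Rpl9*. The log2 changes of these genes were 0.0058, 0.18, −0.082 and −0.12 (limma adjusted p = 0.978, 0.513, 0.731 and 0.551). Among the 55 tested core genes with an entry, the Spearman correlation of run length with this change was −0.012, a description across genes that share libraries, and the median change was 0.56 with a run of at least 8 bases and 0.74 without. The RefSeq start lay 1947 bases from the start of the GENCODE gene in *Rps2* and 493 bases in *Rpl35*, and at most 91 bases in the other 6. An annotated start can lie away from the one used in these cells, and a match is a description of the letters alone.

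Together the core genes took 3.81% and 3.60% of all reads at day 3 in *siNcor1* and 3.72% and 3.01% in *siOct4*. At day 6 they took 5.97% and 5.13% in *siNcor1* and 6.69% and 7.21% in *siOct4*. Every day 6 library lay above every day 3 library, and at day 6 both libraries labelled *siOct4* lay above both *siNcor1* libraries, whereas at day 3 the groups overlapped. The group means were 3.70% ± 0.148 (SD, n = 2) and 3.37% ± 0.506 at day 3 and 5.55% ± 0.591 and 6.95% ± 0.362 at day 6. With *Gm26917* left out of the totals the means were 4.43%, 4.004%, 7.03% and 9.46%. Reads on the small-subunit genes were 0.770 to 0.791 times those on the large-subunit genes at day 3 and 0.853 to 0.931 times at day 6, without overlap between the days. No test was run on these sums, since the set was chosen with earlier results known.

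**Figure D1:**
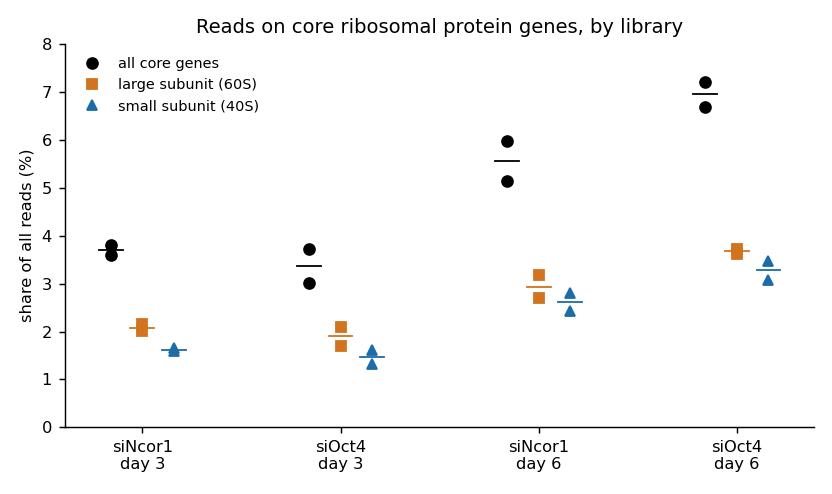
Share of all reads on core ribosomal protein genes in each of the 8 libraries (points, vertical axis in percent) by group, for all core genes, the large and the small subunit, with bars at the mean of the 2 replicates. The day 6 libraries sit between 5.13% and 7.21%, above all day 3 libraries, which sit between 3.01% and 3.81%.

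The question of which core genes changed with time was asked first in *siNcor1*. From day 3 to day 6, 44 of the 75 core genes tested were higher and 0 were lower (limma on log2 CPM, 4 groups fitted together, Benjamini-Hochberg adjusted p under 0.05 over 13866 genes). Of all genes tested, 13.8% were higher and 20.9% were lower. The median log2 fold change of the core genes was 0.69, which is 1.61-fold, and that of all genes was −0.068. The small subunit had 21 of 30 genes called higher and the large subunit 23 of 45. In 53 core genes both day 6 libraries lay above both day 3 libraries, which holds for 31.4% of all genes tested. The count was 24 without *siNcor1* day 3 replicate 2 and 23 without *siNcor1* day 6 replicate 1.

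The largest increases were in *Rps27*, *Rpl23a*, *Rps29* and *Rpl35*. *Rps27*, a zinc-finger protein of the small subunit, had 8.49 and 8.42 log2 CPM at day 3 and 9.92 and 9.63 at day 6. Both day 6 values lay more than 1 log2 unit above both day 3 values, with a log2 fold change of 1.32 (SE 0.17, adjusted p = 0.000193). *Rpl23a*, which lies beside the tunnel through which the new protein leaves the ribosome, had 7.42 and 6.92 at day 3 and 8.70 and 8.26 at day 6, and its log2 fold change was 1.31 (SE 0.25, adjusted p = 0.0023). The replicates of *Rpl23a* were further apart than those of *Rps27*, but its days did not overlap. *Rps29*, another small zinc-finger protein of the 40S subunit, went from 6.96 and 6.76 to 8.50 and 7.84, a log2 fold change of 1.31 (SE 0.26, adjusted p = 0.00298). *Rpl35*, also at the tunnel exit, went from 6.26 and 6.00 to 7.63 and 7.11, a log2 fold change of 1.24 (SE 0.24, adjusted p = 0.00265). These 4 calls held in each of the 8 fits that left out 1 library.

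At the other end, 7 core genes had negative values, none of which passed the test. *Rpl6* had 9.23 and 9.14 log2 CPM at day 3 and 9.18 and 8.85 at day 6 (log2 fold change −0.17, SE 0.15, adjusted p = 0.402). *Rpl9* had 8.51 and 8.40, then 8.48 and 8.18 (−0.12, SE 0.15, adjusted p = 0.551). *Rpl3*, which reaches towards the peptidyl transferase centre, had 9.53 and 9.43, then 9.52 and 9.27 (−0.080, SE 0.15, adjusted p = 0.707). For these and for *Rps2*, at 10.52 and 10.33, then 10.46 and 10.23 (−0.082, SE 0.16, adjusted p = 0.731), the days overlapped. The sign of *Rpl9* turned with quantile normalisation (0.041). The log2 fold changes of the core genes thus ran from −0.17 to 1.32, and the standard error of a single gene was between 0.14 and 0.40, with a median of 0.17.

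In the libraries labelled *siOct4* the same interval gave 60 of 75 core genes higher and 0 lower at day 6, against 22.2% of all genes tested higher and 30.5% lower. The median log2 fold change was 1.15, which is 2.21-fold, and that of all genes was −0.079. At least a 2-fold rise was measured in 45 core genes here and in 15 in *siNcor1*. The upper quartile of the log2 fold change of all genes tested was 0.48 here and 0.32 in *siNcor1*. Other coding genes with transcripts of up to 600 bases had medians of 1.03 and 0.52. The small subunit had 25 of 30 genes called higher and the large subunit 35 of 45, and both day 6 libraries lay above both day 3 libraries in 66 core genes (32.7% of all genes). All 44 core genes called in *siNcor1* were among these 60, and 15 were called in neither. Without *siOct4* day 3 replicate 2, the library with the fewest reads, the count was 50 and the median 0.92. Leaving *Gm26917* out of the library totals, which here and below also dropped the normalisation factors of the deposited values, moved the median of all genes by 0.13 to 0.055. The core median was then 1.28 with 69 calls. With *Gm26917* kept and the normalisation factors dropped, the median of all genes was −0.14 and the core median 1.09 with 60 calls.

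*Rpl35* again had one of the largest rises. It had 6.49 and 5.71 log2 CPM at day 3 and 8.31 and 7.87 at day 6, a log2 fold change of 1.99 (SE 0.24, adjusted p = 4.62e-05). *Rps14*, a protein of the 40S platform whose loss of one copy is known from a human anaemia, had 9.32 and 9.08, then 11.14 and 11.24 (1.99, SE 0.15, adjusted p = 1.66e-06). *Rps18*, a protein of the 40S head, had 9.17 and 8.85, then 10.98 and 10.99 (1.97, SE 0.17, adjusted p = 3.54e-06). In these genes the days lay far apart and the day 6 replicates of *Rps14* and *Rps18* nearly met. *Rps27* had 8.43 and 8.14, then 10.06 and 10.44 (1.97, SE 0.17, adjusted p = 3.69e-06).

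**Figure D2:**
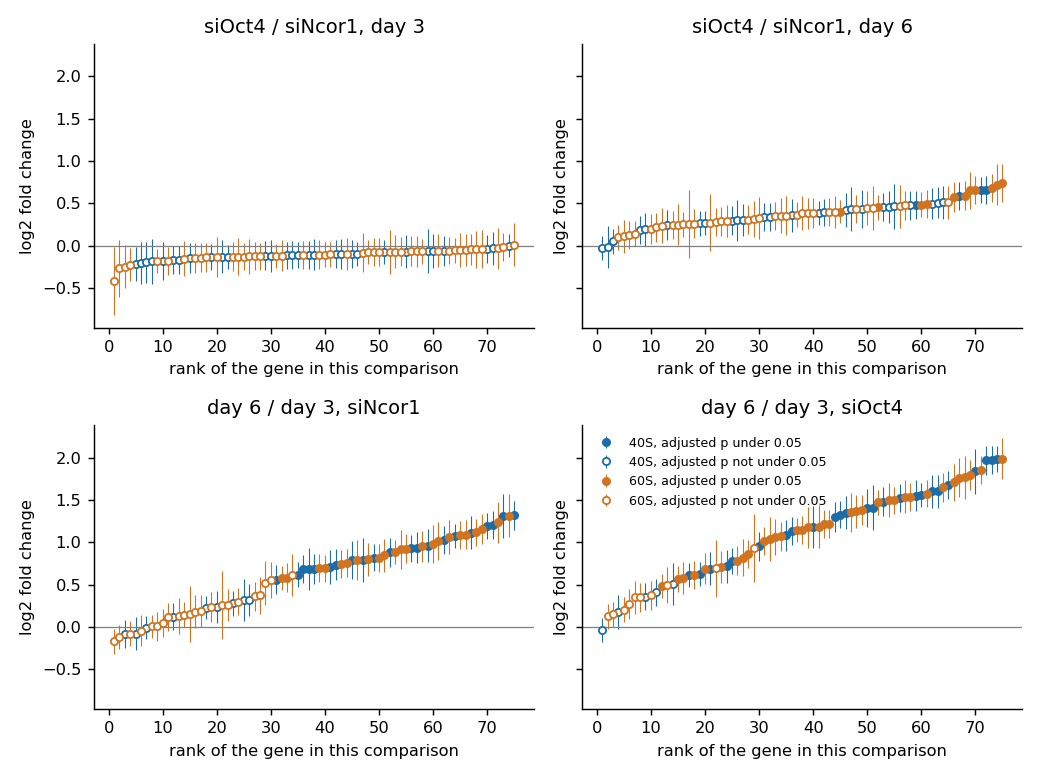
Log2 fold change (vertical axis) of the 75 tested core genes, ranked within each of the 4 comparisons (horizontal axis), with bars of 1 standard error from limma. Blue marks the small and orange the large subunit, and filled points passed an adjusted p of 0.05. No point is filled at day 3, 15 are filled between the knockdowns at day 6, 44 between the days in *siNcor1* and 60 in *siOct4*.

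*Rplp0*, *Rplp1* and *Rplp2* form the stalk of the large subunit, which recruits the translation factors that use GTP. *Rplp1*, per kilobase of transcript the most abundant core gene at 3845 CPM per kilobase, had 10.19 and 9.91 log2 CPM at day 3 and 11.29 and 10.84 at day 6 in *siNcor1*, and 10.27 and 9.75, then 11.86 and 11.58 in *siOct4*. It rose by 1.01 (SE 0.22, adjusted p = 0.00461) and 1.71 (adjusted p = 6.73e-05). Its partner *Rplp2* had 8.73 and 8.39, then 8.94 and 8.45 in *siNcor1*, and 8.63 and 8.24, then 9.17 and 8.69 in *siOct4*. The changes of *Rplp2*, 0.13 (SE 0.21, adjusted p = 0.667) and 0.50 (SE 0.21, adjusted p = 0.0665), did not pass, and its days overlapped in *siNcor1*. In *siOct4*, *Rplp2* did pass with the libraries centred on their median (adjusted p = 0.0297), with quantile normalisation (0.0103), without *Gm26917* in the totals (0.0188), and without *siOct4* day 3 replicate 1 (0.0426) or day 6 replicate 2 (0.0124). *Rplp0*, which anchors both, had 10.82 and 10.67, then 11.10 and 10.77 in *siNcor1*, and 10.81 and 10.49, then 11.35 and 11.11 in *siOct4*, with changes of 0.19 (adjusted p = 0.464) and 0.58 (adjusted p = 0.0224). The call in *siOct4* was lost without *siOct4* day 3 replicate 2 (adjusted p = 0.156) or *siOct4* day 6 replicate 1 (adjusted p = 0.0944), and the call of *Rplp1* in *siNcor1* without *siNcor1* day 3 replicate 2 (0.0686) or day 6 replicate 1 (0.0617).

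*Rpl5* and *Rpl11* enter the ribosome with the 5S ribosomal RNA, and when not built in they bind MDM2, the inhibitor of p53. *Rpl11* had 8.28 and 7.95 log2 CPM at day 3 and 9.32 and 8.87 at day 6 in *siNcor1*, and 8.40 and 7.74, then 10.03 and 9.64 in *siOct4*. It rose by 0.98 (SE 0.23, adjusted p = 0.00634) and 1.76 (adjusted p = 6.56e-05), and the first call was lost without *siNcor1* day 3 replicate 2 (0.0843) or day 6 replicate 1 (0.0729). *Rpl5* had 7.97 and 8.01, then 8.61 and 8.47 in *siNcor1*, and 8.03 and 7.63, then 8.52 and 9.27 in *siOct4*. Its change was 0.55 (SE 0.21, adjusted p = 0.058) in *siNcor1*, where its days did not overlap, and it rose by 1.06 (adjusted p = 0.00116) in *siOct4*. The change of *Rpl5* in *siNcor1* passed under 3 other scalings (adjusted p = 0.0103 to 0.0241), with only the groups compared (0.000993) and without either *siOct4* day 6 library (0.00482 and 0.00479). *Rps27a*, which is made as a fusion to ubiquitin, rose by 0.79 (SE 0.26, adjusted p = 0.036) and 1.41 (adjusted p = 0.000864), the former not without *siNcor1* day 3 replicate 1 (0.064) or 2 (0.256) or day 6 replicate 1 (0.252). Of the 4 core genes on the X chromosome, *Rpl36a* rose in both knockdowns, by 1.09 (adjusted p = 0.000653) and 1.54 (adjusted p = 2.05e-05), while *Rpl39*, *Rpl10* and *Rps4x* passed in neither, with changes of 0.12 to 0.31 and 0.35 to 0.93. In *siOct4*, *Rpl39* passed under 3 other scalings (adjusted p = 0.0199 to 0.0332) and without day 6 replicate 1 (1.64e-06), and *Rps4x* with the libraries centred on their median (0.0453), without *Gm26917* in the totals (0.0332) and without day 6 replicate 1 (0.000492). In *siNcor1*, *Rps4x* passed with only the groups compared (0.0469).

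The libraries labelled *siOct4* were then compared with *siNcor1* on each day. At day 3, 74 of 75 core genes had a negative value, with a median of −0.11 against −0.021 for all genes, and the standard error of each exceeded this median. None of the 75 was higher or lower by limma, 0 had an unadjusted p under 0.05 (10.5% of all genes did) and 0 were called with voom on the recovered reads, where 0.375% of all genes were higher and 0.692% were lower by limma. The lowest adjusted p was 0.789. The most negative, *Rpl39*, had 7.08 and 7.04 log2 CPM in *siNcor1* and 6.73 and 6.55 in *siOct4* (−0.42, SE 0.40, adjusted p = 0.838), and *Rpl30*, *Rpl7* and *Rpl31* followed at −0.27, −0.25 and −0.23. The only positive value, 0.010 in *Rpl23a*, turned negative with 2 other scalings (−0.031 and −0.022). Without *siOct4* day 3 replicate 2 the median was 0.084, so the direction at day 3 rests on that library. It had lower values than replicate 1 in all 75 core genes, by a median of 0.38. Replicate 2 was also the lower in 69 core genes in *siNcor1* at day 3 and in 72 in *siNcor1* at day 6. The median of replicate 2 minus replicate 1 was −0.15 and −0.30 there. In *siOct4* at day 6 it was the lower in 38, with a median of −0.021.

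At day 6, 15 core genes were called higher in *siOct4* than in *siNcor1* and 0 lower, beside 12.1% of all genes higher and 18.6% lower. This is 20% of the core genes, and other coding genes of like length were called higher at 16.3% to 26.4%. The median was 0.38, or 1.30-fold, against −0.025 for all genes, and 73 of 75 values were positive. In 46 core genes both *siOct4* libraries lay above both *siNcor1* libraries, which holds for 29.9% of all genes. The share of all genes called under the alternatives that follow is not given here. The count depended on single libraries and on the fit. It was 0 without *siNcor1* day 6 replicate 2, 8 without either *siNcor1* day 3 library and 4 without the trend of the variance, and centring each library on its median gave 27. Without *siOct4* day 6 replicate 2, 18 core genes were higher and 3 were lower.

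The largest values at day 6 were those of *Rpl11*, *Rpl35*, *Rpl36* and *Rps18*. *Rpl11* had 9.32 and 8.87 log2 CPM in *siNcor1* and 10.03 and 9.64 in *siOct4* (log2 fold change 0.74, SE 0.23, adjusted p = 0.029). *Rpl36*, a protein of the large subunit, had 8.99 and 8.65 and then 9.64 and 9.36 (0.68, SE 0.16, adjusted p = 0.00868). In both genes the *siOct4* libraries lay above both *siNcor1* libraries. *Rps18* had 10.51 and 10.14, then 10.98 and 10.99 (0.66, SE 0.17, adjusted p = 0.0119). *Rpl35* had 7.63 and 7.11, then 8.31 and 7.87 (0.72, SE 0.24, adjusted p = 0.0429). Without the trend of the variance, *Rpl11* and *Rpl35* did not pass (limma adjusted p = 0.0908 and 0.123). *Rpl35* also did not pass without normalisation factors (0.0521) or with no filter (0.0565). All 4 calls were lost without *siNcor1* day 6 replicate 2 (adjusted p = 0.241, 0.115, 0.157 and 0.318 for *Rpl11*, *Rpl36*, *Rps18* and *Rpl35*). Those of *Rpl11* and *Rpl35* were also lost without *siOct4* day 6 replicate 1 (0.117 and 0.174), and that of *Rpl35* without either *siNcor1* day 3 library (0.0688 and 0.0691). *Rps4x*, the X-linked form of a 40S protein, had −0.015 (adjusted p = 0.970), which turned positive when each library was centred on its median (0.026).

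Whether the knockdown difference changed between the days was tested as an interaction. Its value was positive in 74 of 75 core genes, with a median of 0.48 against 0.012 for all genes. The test was passed by 5 core genes, *Rpl36* (0.80, SE 0.23, adjusted p = 0.0281), *Rps14* (0.79, adjusted p = 0.0234), *Rps18* (0.77, adjusted p = 0.0374), *Rpl34* (0.77, adjusted p = 0.0381) and *Rps7* (0.75, adjusted p = 0.0382), beside 7.77% of all genes in that direction and 12.9% in the other. No core gene passed without *siNcor1* day 3 replicate 1, day 3 replicate 2 or day 6 replicate 2, or without *siOct4* day 3 replicate 2, while 15 passed without *siOct4* day 3 replicate 1 and 20 without *siOct4* day 6 replicate 1.

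The day 6 replicates of *siOct4* differed over a wider range than those of the other groups. Replicate 2 minus replicate 1 ranged from −0.71 to 1.84 on the log2 scale over the core genes, against −0.67 to 0.32 in *siNcor1* at day 6, −0.71 to 0.19 in *siNcor1* at day 3 and −0.83 to −0.054 in *siOct4* at day 3. *Rpl39*, a very small protein lining the exit tunnel, had 6.65 and 8.49 log2 CPM, *Rpl30* had 6.37 and 7.83, and *Rpl7* had 10.17 and 11.15. For each of these the *siNcor1* values at day 6, 7.15 and 7.48, 6.79 and 6.87, and 10.36 and 10.30, lay between the replicates of *siOct4*. The Spearman correlation of this replicate difference with the GC content of the transcript was −0.60 over the 75 core genes and −0.63 over 12447 other coding genes, a description across genes of the same pair of libraries. In *siNcor1* at day 6 it was −0.37 and −0.40. With both replicates, the log2 fold change of *siOct4* against *siNcor1* at day 6 was 0.25 in *Rpl39* (limma adjusted p = 0.661) and 0.27 in *Rpl30* (adjusted p = 0.565). Without *siOct4* day 6 replicate 1 the values were 1.17 and 1.00, and without replicate 2 they were −0.67 and −0.46. The sign in these genes thus depended on which replicate was left out. Over the 75 core genes, GC content also correlated with the log2 fold change of *siOct4* against *siNcor1*, at 0.52 at day 3 and 0.30 at day 6 (Spearman). With the change over time the correlation was −0.0051 in *siNcor1* and 0.010 in *siOct4*. These too are descriptions across genes that share libraries. The part of GC content in the results was not tested.

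**Figure D3:**
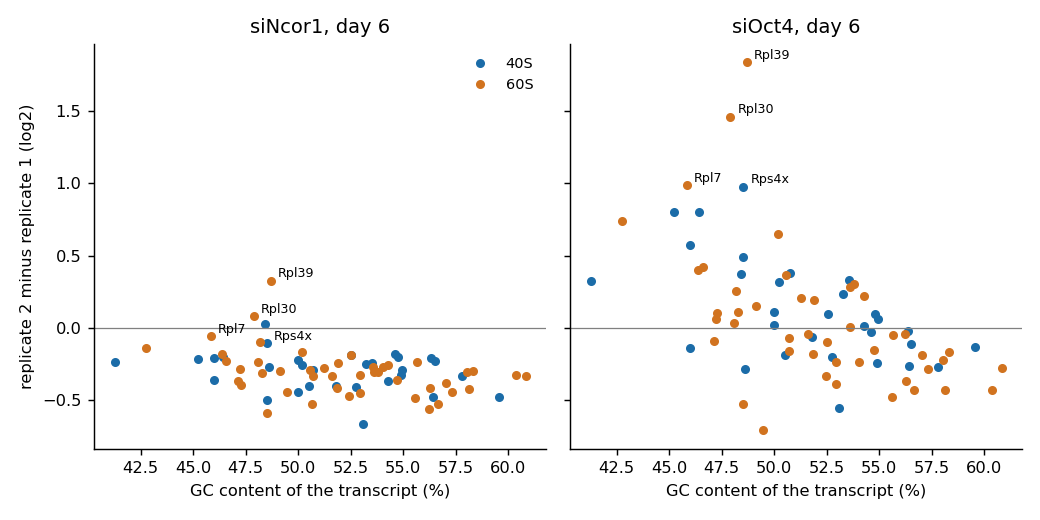
Difference between replicate 2 and replicate 1 at day 6 (vertical axis, log2) against the GC content of the transcript (horizontal axis, percent) for the 75 tested core genes, in *siNcor1* (left) and the libraries labelled *siOct4* (right). In *siOct4* the points fall with GC content, from 1.84 in *Rpl39* to −0.71, and in *siNcor1* they stay between −0.67 and 0.32.

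Ribosomal protein messages are short, and short transcripts of other coding genes also had higher values at day 6. Among the 182 other coding genes with transcripts of up to 600 bases, the median change from day 3 to day 6 was 0.52 in *siNcor1* and 1.03 in *siOct4*, beside 0.88 and 1.45 for the 28 core genes of that length. Between 600 and 1000 bases it was 0.37 and 0.58 over 622 other genes, and 0.46 and 0.94 over 30 core genes. Between 1000 and 2500 bases it was 0.050 and 0.13 over 4189 other genes, and 0.53 and 1.05 over 16 core genes, and above 2500 bases the other genes had −0.20 and −0.32. The core median was thus above that of other genes of like length in each of these classes and both knockdowns, least so at 600 to 1000 bases in *siNcor1*. Between the knockdowns at day 6 the other genes had medians of 0.34, 0.21 and 0.064 in the 3 shorter classes and the core genes 0.41, 0.36 and 0.35. Of the short other genes, 40.7% were called higher with time in *siNcor1* and 69.8% in *siOct4*, beside 78.6% and 89.3% of the short core genes. Between the knockdowns at day 6 the shares called higher were 26.4%, 19.5% and 16.3% of the other genes in the 3 shorter classes, and 21.4%, 23.3% and 12.5% of the core genes, so that in the first and the last of these the core share was the lower. The part of transcript length in the results was not tested.

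**Figure D4:**
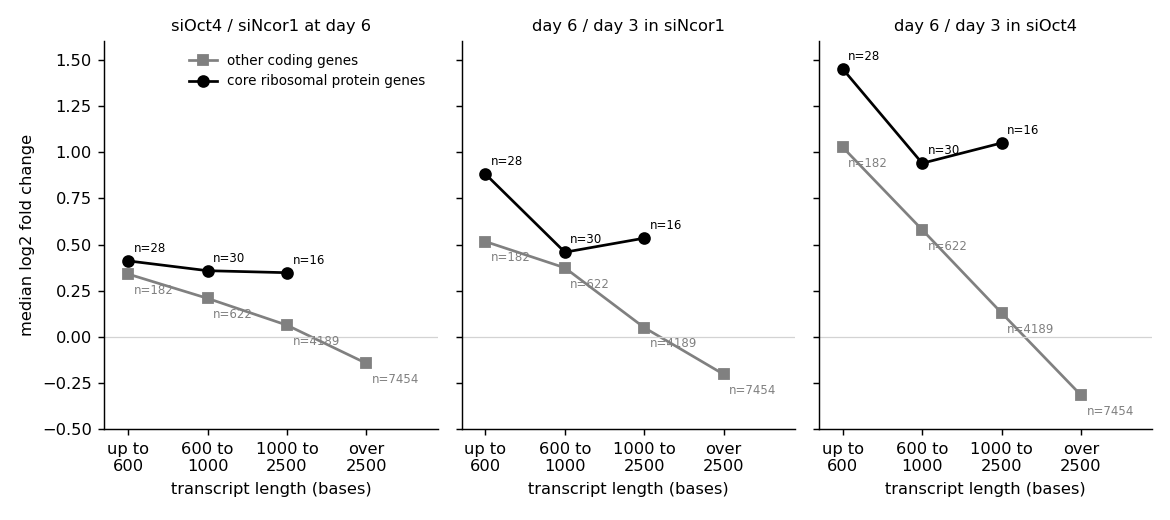
Median log2 fold change (vertical axis) by class of transcript length in bases (horizontal axis) for core ribosomal protein genes (black) and other coding genes (grey) in 3 comparisons, with the number of genes at each point. The class above 2500 bases holds 1 core gene, *Rps20*, and is not drawn for core genes. The grey line falls with length in each panel, and the black line lies above it.

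Levels per kilobase of the annotated transcript ranged from 113 to 3845 CPM per kilobase among the 75 tested core genes, with a median of 707. *Rplp1*, *Rps12* and *Rps14* were highest, at 3845, 2278 and 2118, and *Rpl13a* and *Rpl35* lowest among those tested, at 113 and 154. *Rpl13a* shares exon sequence on its strand with the gene model *Gm45713*, and *Rpl24* with *Gm28037*, so reads there may have been assigned to either. *Rpl24* had 2 to 20 reads in each library and was not tested. Such levels depend on the transcript chosen, as in *Rps20*, whose only coding transcript in the annotation has 3706 bases. Rows for 101 pseudogenes named after members held at most 0.0359% of reads, and near-identical copies elsewhere in the genome can take reads from the genes themselves.

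Of the 8 paralogues, *Rps4l*, *Rpl32l* and *Rpl6l* are annotated as pseudogenes, and *Rpl32l* and *Rpl6l* had under 1 CPM on average and were not tested. *Rps27l*, a p53-responsive relative of *Rps27*, was by far the most abundant at 571 CPM per kilobase. It had 7.59 and 7.55 log2 CPM at day 3 and 8.25 and 7.98 at day 6 in *siNcor1*, and 7.59 and 7.10, then 8.85 and 9.11 in *siOct4*. Its values at day 6 were above those at day 3 in both knockdowns, and its *siOct4* values at day 6 were above all others. It rose by 0.55 in *siNcor1* (SE 0.17, adjusted p = 0.0242) and by 1.63 in *siOct4* (adjusted p = 1.34e-05), was 0.86 higher in *siOct4* than in *siNcor1* at day 6 (adjusted p = 0.00329), and passed the interaction test with 1.08 (SE 0.24, adjusted p = 0.00905). The rise in *siNcor1* was lost without either *siNcor1* day 3 library (adjusted p = 0.0933 and 0.13) or day 6 replicate 1 (0.192), and the difference at day 6 was just lost without *siNcor1* day 6 replicate 2 (0.0502), as was the interaction without *siNcor1* day 3 replicate 2 (0.0501) or day 6 replicate 2 (0.0534). Per kilobase, *Rps27l* went from 37.4% of the level of *Rps27* at day 3 to 21.9% at day 6 in *siNcor1*, and from 36.5% to 28.5% in *siOct4*. The replicates of this ratio were 37.0% and 37.8%, then 21.8% and 22.1% in *siNcor1*, and 38.7% and 33.8%, then 29.9% and 27.4% in *siOct4*, so that the days did not overlap in either.

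The other paralogues were low beside their core genes. *Rpl7l1* had 6.92 and 7.17 log2 CPM at day 3 and 7.12 and 6.84 at day 6 in *siNcor1*, and 7.15 and 6.90, then 7.18 and 7.48 in *siOct4*, with no change called (−0.065, adjusted p = 0.773, and 0.31, adjusted p = 0.113). Its sign in *siNcor1* turned with quantile normalisation (0.11) and without *Gm26917* in the totals (0.011). In *siOct4*, *Rpl7l1* did pass with the libraries centred on their median (0.38, limma adjusted p = 0.0384). It also passed there with quantile normalisation (0.54, adjusted p = 0.00844) and without *Gm26917* in the totals (0.44, adjusted p = 0.0219). Beside it *Rpl7* had 9.67 and 9.78, then 10.36 and 10.30 in *siNcor1*, and the ratio of *Rpl7l1* to *Rpl7* per kilobase went from 13.9% to 8.70% there and from 16.2% to 8.38% in *siOct4*. *Rpl22l1*, whose level is known to be held down by RPL22, had 5.56 and 5.53, then 6.24 and 5.98 in *siNcor1*, and 5.44 and 4.96, then 5.63 and 7.17 in *siOct4*. Its rise of 1.20 in *siOct4* (SE 0.36, adjusted p = 0.0136) was lost without *siOct4* day 6 replicate 2 (0.43, adjusted p = 0.0688) or day 3 replicate 2 (adjusted p = 0.107), and its ratio to *Rpl22* was 10.6% to 13.4% over the groups, with 6.16% and 16.8% in the replicates of *siOct4* at day 6. *Rpl36al*, an intronless copy of the X-linked *Rpl36a*, had 0.64 and 0.77 log2 CPM at day 3 and 1.67 and 1.36 at day 6 in *siNcor1*, and 0.70 and 0.35, then 2.02 and 2.13 in *siOct4*. It rose by 0.82 (SE 0.29, adjusted p = 0.0464) and 1.55 (adjusted p = 0.00086), the former not without any 1 of the 4 *siNcor1* libraries (adjusted p = 0.0874 to 0.248), and its ratio to *Rpl36a* was 0.842% to 1.00%. It shares exon sequence on its strand with *Gm49383*.

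*Rpl39l* was 0.96 higher in *siOct4* than in *siNcor1* at day 6 (SE 0.32, adjusted p = 0.0404), with 1.64 and 2.35 against 2.57 and 3.33 log2 CPM. It did not pass without the trend of the variance (limma adjusted p = 0.0763) or without normalisation factors (0.0603). Nor did it pass with no filter (0.0563) or with only the groups compared (0.0726). The call was lost without either *siNcor1* day 3 library (adjusted p = 0.0661 and 0.066), without *siNcor1* day 6 replicate 1 (0.263) and without *siOct4* day 6 replicate 2 (0.21), and its change with time in *siNcor1*, −0.028 (adjusted p = 0.955), turned positive with the libraries centred on their median (0.014). *Rps4l* rose by 0.68 in *siOct4* (SE 0.17, adjusted p = 0.00475), with 5.50 and 5.18 at day 3 and 6.21 and 5.82 at day 6, a call lost without *siOct4* day 3 replicate 2 (0.0612). Its functional counterpart *Rps4x* had 9.51 and 9.15, then 9.35 and 10.32, groups that overlapped (0.50, adjusted p = 0.110).

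**Figure D5:**
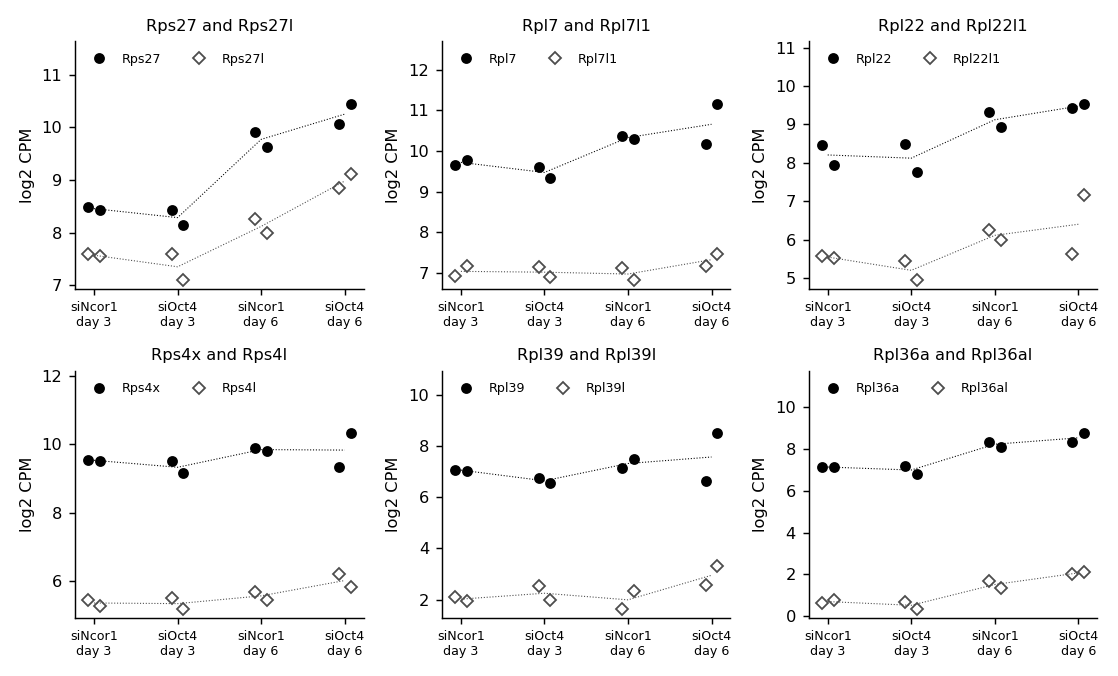
Deposited log2 CPM (vertical axis) of the 6 tested paralogues (open diamonds) and the core gene each is named after (filled circles) in the 2 replicates of each group, with dotted lines through the group means. *Rps27* and *Rps27l* are both higher at day 6, while in *siNcor1* *Rpl7l1* stays near 7 as *Rpl7* rises above 10. In *siOct4* the rise of *Rpl7l1* passed the test under some scalings only.

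Other genes of protein synthesis were taken from lists by name, and the examples among them were chosen after their values were seen. Their counts stand beside 13.8% of all genes higher and 20.9% lower with time in *siNcor1*, 22.2% and 30.5% in *siOct4*, and 12.1% and 18.6% between the knockdowns at day 6, and several are near these shares. Of the ribosomal proteins outside the rule, these rose from day 3 to day 6 in *siOct4*, *Rps3a1* by 1.10 (adjusted p = 0.000389), *Fau* by 0.85 and *Rack1* by 0.70, and *Fau* also in *siNcor1* (0.48, adjusted p = 0.0257). The 77 mitochondrial ribosomal proteins, which serve the separate ribosome of mitochondria, had 13 genes higher and 6 lower with time in *siNcor1*, and 41 higher and 1 lower in *siOct4*, with medians of 0.042 and 0.48. Between the knockdowns at day 6, 29 of them were higher in *siOct4* and 0 were lower, with a median of 0.45. The 43 initiation factors, which bring the ribosome to the start codon, had 0 higher and 18 lower in *siNcor1*, with a median of −0.32, and 8 higher and 11 lower in *siOct4*. Among them *Eif4g2* fell by 0.86 in *siNcor1* (adjusted p = 0.00151) and *Eif3a* by 0.75 (adjusted p = 0.000894). The median transcript of the initiation factors has 2153 bases and that of the mitochondrial ribosomal proteins 1280, and that of the core genes 751.

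The 17 genes known for TOP messages but outside the ribosome had 2 higher and 7 lower with time in *siNcor1* and 4 higher and 4 lower in *siOct4*, with medians of −0.22 and −0.029. The elongation and initiation factors in this list are also counted in the lists of those factors, so these counts are not independent. *Tpt1* rose by 0.96 (adjusted p = 0.00156) and 1.40 (adjusted p = 4.55e-05), and *Naca*, a chaperone of new proteins, by 0.50 (adjusted p = 0.0213) and 1.05 (adjusted p = 0.000123). *Pabpc1*, the poly(A) binding protein, and the elongation factor *Eef1g* fell in both knockdowns, by 0.62 and 0.52 in *siNcor1* and by 0.53 and 0.47 in *siOct4*. Of the 12 genes of mTORC1 and TOP control, 4 fell and 0 rose in *siNcor1*, among them *Larp1* by 0.57 (adjusted p = 0.00711), and 5 fell and 2 rose in *siOct4*, among them *Mtor*, which fell by 0.56 (adjusted p = 0.0021), and *Eif4ebp1*, which rose by 0.98 (adjusted p = 0.00201). The 8 elongation factors had 1 higher and 1 lower in *siNcor1* and 2 higher and 1 lower in *siOct4*. Of 7 carriers that bring single ribosomal proteins to the place of assembly, 1 rose and 4 fell in *siNcor1* and 1 rose and 2 fell in *siOct4*, with *Grwd1*, the carrier of RPL3, 0.58 higher in *siOct4* than in *siNcor1* at day 6 (adjusted p = 0.0114).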

How the data were processed

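RNA was measured in 8 libraries, 2 in each of 4 groups. The authors deposited log2 CPM, and the submitters' processing notes name STAR 2.5.2b, edgeR 3.20.9 and the builds mm10 and GRCm38. The read counter and its use of strand are not given in the sources used here. Whole reads were recovered for 100% of values within 0.1 read, and their sums are the depths given. A value of −2.87, the smallest in the table, is that of 0 reads.

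Differences were tested with limma 3.58.1 (R 4.3.3) (trended variance, the 4 groups in one fit) applied to the log2 CPM as deposited. Genes averaging at least 1 CPM were kept, 13866 of 18990, and p-values were two-sided, adjusted over all of them by Benjamini and Hochberg, with a threshold of 0.05. Transcript length, GC content and overlaps came from GENCODE M21, matched for 18969 genes, and start sites from RefSeq GRCm38.p6. Tables and plots were made with Python 3.11.15, pandas 2.3.3 and matplotlib 3.10.9.

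The genes named were the 4 core genes at either end of the changes in each comparison of 2 groups, the 2 at either end of the interaction, the 3 highest and 3 lowest in level per kilobase, and every paralogue with its core gene, of which the lowest few are given by counts, and some genes of these and of the other lists are not reported here. *Rplp0*, *Rplp2*, *Rpl5*, *Rps27a*, *Rpl10*, *Rpl34*, *Rps7*, *Rpl37*, *Rpl7a*, *Rpl28* and *Rps20* were chosen after their values were seen. The members and lists were chosen with earlier results of these data known. Alternatives were other scalings, filters, pseudocounts, voom on recovered reads, a fit without the trend, the groups compared alone, a replicate block, and leaving out each library. Counts are of reads, not molecules, and depth errors cover counting only.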

Additional observations from a re-analysis of the deposited data

Results flagged for a closer look

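For 5 core genes and 1 paralogue the change from day 3 to day 6 differed between the knockdowns by the interaction term of limma, being larger in the libraries labelled *siOct4*. The 5 are 6.67% of the core genes tested, beside 7.77% of all genes called in that direction. The difference on the log2 scale was 1.08 in *Rps27l*, 0.80 in *Rpl36*, 0.79 in *Rps14*, 0.77 in *Rps18*, 0.77 in *Rpl34* and 0.75 in *Rps7*, and in each gene both day changes were positive. Of the 8 fits that left out 1 library, *Rps27l* passed in 6, *Rpl36*, *Rps14* and *Rps18* in 4, *Rpl34* in 3 and *Rps7* in 2.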

How the results depend on the processing

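The cause of the changes below was not tested. Fits without *Gm26917* in the totals were also without normalisation factors. The 15 core genes higher in *siOct4* at day 6 became 4 without the trend, 27 with the libraries centred on their median, 24 without *Gm26917* in the totals, 9 without normalisation factors, 6 with only the groups compared, and 0 to 21 when a library was left out. The 5 core genes with an interaction became 1, 10 and 10 under the first 3 of these, 14 with quantile normalisation, 2 with no filter, and 0 to 20 when a library was left out. The counts with time were 23 to 46 in *siNcor1* and 50 to 64 in *siOct4* without 1 library, and the core medians then ran from −0.30 to 0.084 at day 3, 0.22 to 0.53 at day 6, 0.56 to 0.81 and 0.92 to 1.36 with time, and 0.28 to 0.67 for the interaction. With a replicate block the counts were 36 at day 6, 48 and 65 with time and 18 for the interaction. The share of all genes called under each of these alternatives is not given here, so these counts cannot be set against it. Without either *siNcor1* day 3 library the core median at day 6 stayed at 0.38, so the count there can move while the values do not. Over all genes tested, deviations of libraries with the same number correlated at −0.040 to 0.28, so they were not taken as pairs. Among the 75 core genes, replicate 2 was lower than replicate 1 in 69 and 72 in *siNcor1* at day 3 and day 6. In *siOct4* it was lower in 75 and 38. The replicate block allows for a shift shared by replicate number, and with it the core median at day 6 stayed at 0.38. Among the genes that passed only with it or with some other settings were *Rplp2* (limma adjusted p = 0.00281) and *Rpl39* (0.0372) with time in *siOct4*. In *siNcor1*, *Rpl5* was another (0.0498). Whether such a shift bears on the core genes was not tested otherwise. The core share averaged 4.43%, 4.004%, 7.03% and 9.46% without *Gm26917*, and 2.95%, 2.68%, 4.59% and 5.77% without the 5 core genes with most reads.

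Signs turned under other scalings for values near 0. At day 3, *Rpl23a* became −0.031 without *Gm26917* and −0.022 without normalisation factors. At day 6, *Rps4x* became 0.026 with median centring and 0.0037 without *Gm26917*. With time in *siNcor1*, median centring and totals without *Gm26917* gave *Rpl39l* 0.014 and 0.046, the latter gave *Rpl7l1* 0.011, and quantile normalisation gave *Rpl7l1* 0.11, *Rpl9* 0.041 and *Rpl7a* −0.071.

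Leaving out 1 library turned the sign of further values, none of which passed the test with all 8 libraries. At day 3 the ranges were −0.25 to 0.27 in *Rpl23a*, −0.54 to 0.084 in *Rpl31*, −0.045 to 0.50 in *Rpl39l*, −0.15 to 0.11 in *Rpl7l1*, −0.47 to 0.027 in *Rps27l* and −0.17 to 0.14 in *Rps4l*. At day 6 they were −0.48 to 1.06 in *Rpl22l1*, −0.46 to 1.00 in *Rpl30*, −0.67 to 1.17 in *Rpl39*, −0.016 to 0.73 in *Rpl5*, −0.17 to 0.82 in *Rpl7*, −0.0077 to 0.48 in *Rplp2* and −0.50 to 0.47 in *Rps4x*. With time in *siNcor1* they were −0.030 to 0.39 in *Rpl28*, −0.20 to 0.041 in *Rpl3*, −0.38 to 0.33 in *Rpl39l*, −0.090 to 0.10 in *Rpl7a*, −0.21 to 0.075 in *Rpl7l1*, −0.27 to 0.028 in *Rpl9*, −0.11 to 0.37 in *Rplp2* and −0.20 to 0.035 in *Rps2*. In *siOct4* the range was −0.041 to 1.42 in *Rpl30*.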
